A study of Mus musculus with 4 samples.

Results

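The mast cell genes described here are 8 genes fixed by name: the granule proteases Mcpt4, Tpsb2, Cma1 and Cpa3, the growth factor receptor gene Kit, the histamine-forming enzyme gene Hdc, and Ms4a2 and Fcer1a, which encode 2 subunits of the high-affinity IgE receptor. All 8 were found on the array, as 11 of its 22626 probe sets, by the gene symbol or gene ID of the deposited table; the array named 13108 genes in all. A probe set is a set of short probes against one transcript. The list was set by gene name, with earlier results of these arrays known.

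RNA was measured in 4 samples of mouse fat on 1 Affymetrix array each. Cultured primary adipocytes of visceral fat were given 10 µM forskolin, a plant-derived activator of adenylyl cyclase that raises cellular cAMP, or DMSO vehicle, for 2 h each. Whole epididymal fat pads came from mice fed a high fat diet (60%; HFD below) during 12 weeks, or from chow-fed control mice, and the file headers mark both as WT. The strain, sex and age of the mice, and how many mice gave the RNA of an array, are not stated in the labels. With 1 array per group, no difference below could be tested or set against a replicate spread, and precision is limited by the number of arrays.

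Mast cells are tissue-resident immune cells that mature from blood-borne progenitors under the hold of Kit and its ligand. They store histamine and proteases in granules, bound to the proteoglycan serglycin, and release them when IgE on their surface is cross-linked by antigen. In mice, mast cells of connective tissue are known for the chymases encoded by Mcpt4 and Cma1, the tryptase encoded by Tpsb2 and carboxypeptidase A3 (Cpa3), and those of mucosa for Mcpt1 and Mcpt2. Mast cells also reside in the stroma of white fat, between the adipocytes.

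Values are intensities on a linear scale, in the arbitrary units of the array. The median intensity over all probe sets was 237.3 with forskolin, 236.5 with vehicle, 314.4 on the HFD and 265.7 on chow. Before taking log2, intensities under the 10th percentile of their array were set to it, a floor of 22.23, 22.1, 26.03 and 25.08 in the same order, so values at or below the floor have no order. The adipocyte marker gene Adipoq had 10449 with forskolin, 10261 with vehicle, 9962 on the HFD and 10456 on chow. The other adipocyte markers were less even. Of the 9 measured, 1 was at least 2-fold higher on the HFD (Lep, 5517 and 808.3 on chow) and 2 were lower (Retn, 2889 and 10055, and Cfd, 5663 and 12082), while 3 were at least 2-fold lower in vehicle cultures than in chow fat (Lipe, Cidec and Pparg). The 6 markers of all leukocytes summed to 436.1 with forskolin and 408.1 with vehicle, and the 6 endothelial markers to 381.6 and 406.9, against 4160 and 9402 in chow fat. The cultures thus read low for both cell types. In these bulk samples, fewer mast cells and less RNA per mast cell cannot be told apart.

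The diet comparison set fat after long high fat feeding against chow fat. By their brightest probe sets the 4 granule protease genes were 5.17-fold to 30.1-fold higher on the HFD, but the other probe set of Tpsb2 was 1.18-fold higher. Of these brightest probe sets, only that of Cpa3 lacks a suffix (_a_at) counted here as marking several transcripts. Kit was 1.68-fold higher by 1 of its 2 probe sets. Hdc was within 1.15-fold by both of its probe sets, Ms4a2 lay near the floor, and Fcer1a had no value on the HFD array. Of the 7 members with a value on both fat arrays, 4 were at least 2-fold higher and none was 2-fold lower. In the same comparison 12.2% of the 12939 measured genes reached 2-fold higher, and 7.43% reached 2-fold lower. The members' median log2 difference was 2.37, a 5.17-fold difference, beside 0.05 for all measured genes. Between the arrays of a pair, the difference is the log2 level of the first group named minus that of the second.

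Mcpt4, which encodes a chymase that cleaves after aromatic residues, had an intensity of 877.6 on the HFD and 29.11 on chow. The chow value lay just above the floor of 25.08, at percentile 11.6 of that array, and the high fat value at percentile 72.9. The difference was 30.1-fold, or 4.91 on the log2 scale, which placed Mcpt4 at rank 16 from the highest of 12939 genes. With the floor at each array's 25th percentile the log2 difference was 3.60, since the chow value then sat at the floor. The authors' deposited table gives bounds of 19.7 and 63.69 around this fold, at a confidence level that is not stated. Bounds from 1 array per group cannot hold the variation between mice.

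Cma1, the gene of a second chymase-family protease that has elastase-like activity in mice, had 1122 on the HFD and 203.6 on chow. Its fold was 5.51, with bounds of 4.53 and 7.02 in the authors' deposited table. Cpa3 encodes carboxypeptidase A3, which trims residues from the end of peptides that the chymases have cut, and it had 1086 on the HFD and 210.2 on chow. Its fold was 5.17, with bounds of 4.49 and 6.06 in the authors' deposited table. Both genes thus showed a similar fold, and 2.44% and 2.7% of all measured genes had a diet difference as high or higher.

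Tpsb2, named Mcpt6 in the deposited table, encodes a tryptase that is stored in the granules as a tetramer. By its brighter probe set it had 920.2 on the HFD and 122.1 on chow, a 7.54-fold difference. By its other probe set it had 101.1 on the HFD and 85.85 on chow, a 1.18-fold difference. That probe set read 74.43 with forskolin and 66.04 with vehicle, so it stayed within a narrow range on all 4 arrays. The 2 probe sets therefore gave the same direction and very different sizes. The bounds in the authors' deposited table were 5.96 and 10.24 for the first and 1.06 and 1.31 for the second.

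**Figure D1:**
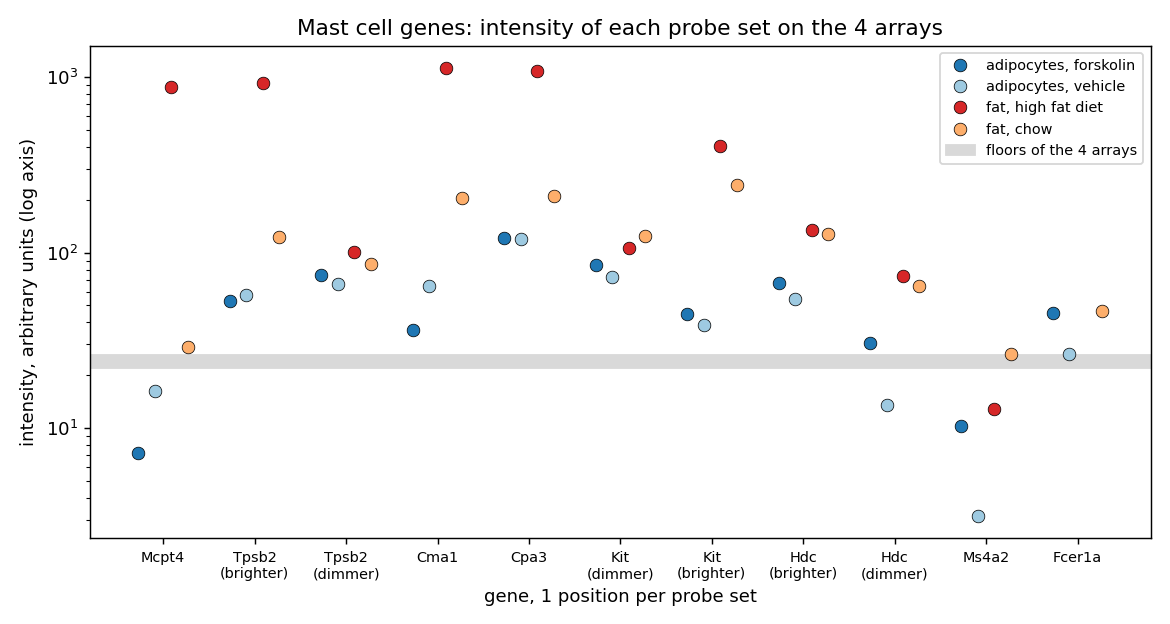
Intensity of each probe set of the 8 mast cell genes (log axis, arbitrary units) on the forskolin, vehicle, high fat diet and chow arrays, 1 point per array, with the floors of the arrays as a grey band. On the high fat diet the points of Mcpt4, brighter Tpsb2, Cma1 and Cpa3 lie between 877.6 and 1122, apart from the other 3 arrays, while Ms4a2 lies at the top of the band on chow and below it on the other 3, and Fcer1a has no high fat diet point.

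The genes outside the protease group had smaller differences. Kit encodes the receptor tyrosine kinase for stem cell factor, which mast cells need to survive. Its brighter probe set had 407.4 on the HFD and 242.6 on chow, a log2 difference of 0.75, and its other probe set 106.2 on the HFD and 124.3 on chow, a log2 difference of -0.23. The direction for Kit thus depended on the probe set. The authors' deposited table bounds the Kit fold at 1.4 and 2.07 for the brighter probe set, and at -0.77 and -2.0 for the other. A minus sign there marks the ratio of chow over HFD, so the second pair of bounds lies on both sides of no change.

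Hdc encodes histidine decarboxylase, the enzyme that makes histamine. It had 135.4 on the HFD and 128.4 on chow by its brighter probe set, and 73.61 and 64.22 by the other. These values lay at or below percentile 35.4 of their arrays, where a difference may not be resolved. The folds were 1.05 and 1.15, and the suffixes of both probe sets mark probes that can read several transcripts. Under quantile normalization its log2 difference was -0.04, so its sign depended on the scaling. Of all measured genes, 46.4% had a diet difference as high as that of Hdc or higher.

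The receptor subunit genes were near the limit of the arrays. Ms4a2 encodes the beta subunit of the high-affinity IgE receptor, which amplifies its signal. It had 12.81 on the HFD, below the floor, and 26.35 on chow, just above it, so it gave no usable fold after flooring. The authors' deposited table gives it a fold of -2.06, with both intensities in the lowest 10.5% of their arrays. Fcer1a, the gene of the alpha subunit that binds IgE, had 46.61 on chow and no value on the HFD array. A transcript whose probe set reads at the floor may still be present, at a level these arrays did not resolve.

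**Figure D2:**
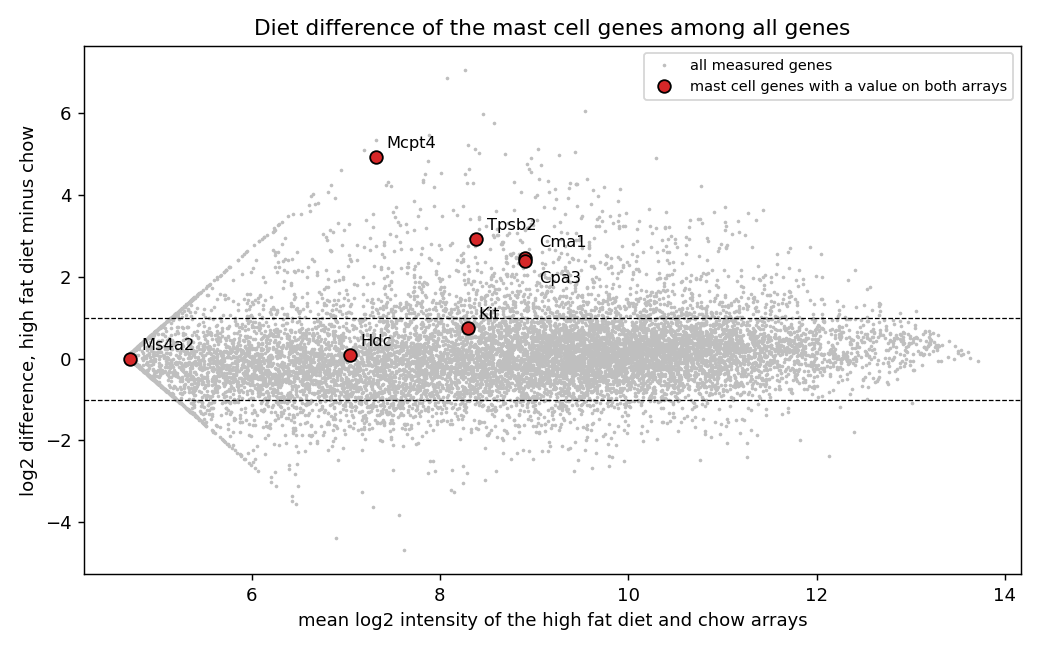
Log2 difference of each measured gene, high fat diet minus chow, against the mean log2 intensity of the 2 fat arrays, with the 7 mast cell genes that have both values in red and dashed lines at a 2-fold difference. Mcpt4 (4.91), Tpsb2 (2.91), Cma1 (2.46) and Cpa3 (2.37) lie above the upper line, Kit (0.75) and Hdc (0.08) between the lines, and Ms4a2 at the left edge, where the floors set the difference.

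The split between higher and lower genes over the whole array depended on the scaling between arrays. At least 2-fold higher genes were 62.1% of all genes 2-fold apart as deposited, 45.5% after quantile normalization and 42.2% with the arrays scaled to the same median. The median log2 difference of all genes was 0.05, -0.10 and -0.19 in the same order. Under both scalings the 4 proteases stayed at least 2-fold higher. After quantile normalization the log2 differences were 4.84 for Mcpt4, 2.85 for Tpsb2, 2.39 for Cma1 and 2.30 for Cpa3. With the arrays scaled to the same median they were 4.67, 2.67, 2.22 and 2.13.

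The promoters of the 3 single-probe-set proteases that were higher together are shown with that of Ms4a2, which was not. RefSeq windows of 300 bases, from 250 before to 50 after a start site (build GRCm38.p6), were found for 7 of the 8 members, and for Kit there were 2 overlapping ones. Capitals mark the letters GATA with A or T before them and A or G after them, the site that GATA factors bind, on either strand. GATA factors are known regulators of mast cell genes.
Mcpt4: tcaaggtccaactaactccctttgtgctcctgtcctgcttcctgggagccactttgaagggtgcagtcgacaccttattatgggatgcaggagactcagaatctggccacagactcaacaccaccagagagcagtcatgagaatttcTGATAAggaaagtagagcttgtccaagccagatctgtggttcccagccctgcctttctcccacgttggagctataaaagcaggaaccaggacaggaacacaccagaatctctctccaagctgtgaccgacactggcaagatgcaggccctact
Cma1: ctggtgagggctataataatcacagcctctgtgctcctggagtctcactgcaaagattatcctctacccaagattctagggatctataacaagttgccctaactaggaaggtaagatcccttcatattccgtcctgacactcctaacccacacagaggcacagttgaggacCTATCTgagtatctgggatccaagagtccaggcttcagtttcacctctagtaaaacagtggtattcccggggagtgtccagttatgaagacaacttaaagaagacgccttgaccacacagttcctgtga
Cpa3: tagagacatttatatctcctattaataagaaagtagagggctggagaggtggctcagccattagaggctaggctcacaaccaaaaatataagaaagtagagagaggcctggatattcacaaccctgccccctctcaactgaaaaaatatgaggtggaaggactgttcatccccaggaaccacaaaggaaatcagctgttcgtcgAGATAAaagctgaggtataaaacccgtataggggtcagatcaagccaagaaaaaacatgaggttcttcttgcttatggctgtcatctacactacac
Ms4a2: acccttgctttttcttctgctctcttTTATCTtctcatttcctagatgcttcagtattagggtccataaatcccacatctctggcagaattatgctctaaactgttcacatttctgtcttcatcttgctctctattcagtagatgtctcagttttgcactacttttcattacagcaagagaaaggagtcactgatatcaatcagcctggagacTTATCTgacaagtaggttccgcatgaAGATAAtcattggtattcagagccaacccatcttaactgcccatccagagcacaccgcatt
These windows lie at chr14:56062261-56062560, chr14:55944626-55944925, chr3:20242132-20242431 and chr19:11623670-11623969, all on the minus strand.

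Mcpt4 and Cpa3 each held 1 match on the strand shown, starting at -103 and -46 from the start site. Cma1 held 1 match on the opposite strand, and Ms4a2 held 3. Fcer1a and Hdc held 1 match each and the Kit windows none. So 6 of 7 members had a window with a match, both among the genes that were higher on the diet and among those that were not. Of the 32851 windows in the table, 29.8% held such a match. The TATA box letters TATAAA, at any place and on either strand, were found in the windows of Mcpt4, Cpa3 and Fcer1a, and in 13.6% of all windows. On the strand shown they started at -32 in Mcpt4 and -31 in Cpa3, but at -125 in Fcer1a. The cAMP response element TGACGTCA and its shorter form TGACG, which lies within it, were found in no member window, against 1.79% and 20.8% of all windows. The MITF site CACATG or CACGTG was found in that of Fcer1a and in 20.4% of all windows. A match is a run of letters, and the absence of one says only that these letters are not in the window. The authors' deposited table classes Hdc as CRE_NoTATA, a predicted CRE without a TATA box, and each of the other 7 genes as others.

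Mcpt4 and Cma1 lie in the same cluster of protease genes on chromosome 14, so the neighbouring genes were set beside them. By gene order in GRCm38.p6, Mcpt1 and Mcpt2 lie between Cma1 and Mcpt4, and Mcpt8, Ctsg and several granzyme genes follow Mcpt4. The neighbours did not share the high values of the 2 chymase genes. Mcpt2, a protease gene of mucosal mast cells, had 96.07 on the HFD and 236.4 on chow, a 2.46-fold lower value. Mcpt1, also of the mucosal type, had 60.9 on the HFD and 19.44 on chow, where it was below the floor, and was at least 2.43-fold higher. Mcpt8, a protease gene of basophils, had 35.51 on the HFD and 47.36 on chow.

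Ctsg, the cathepsin G gene, had 81.7 on the HFD and 71.98 on chow. The granzyme genes Gzme, Gzmd, Gzmg and Gzmn and the pseudogene Mcpt-ps1 were at or below the floor on both fat arrays. The values of Mcpt1 and Mcpt2 also varied in the cultures, where Mcpt1 had 70.46 with forskolin and 35.44 with vehicle and Mcpt2 had 118.4 and 103. The adipocyte cultures thus read Mcpt1 above the chow fat value on both arrays. In the tryptase cluster, Tpsab1 and Tpsg1 lie on either side of Tpsb2. Tpsab1, which the reference lists as a transcribed pseudogene in C57BL/6J, had 88.84 on the HFD and 44.24 on chow, and Tpsg1 had 79.26 and 64.16. Tpsab1 is a close paralog of Tpsb2, and whether probes of one read the other was not tested.

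**Figure D3:**
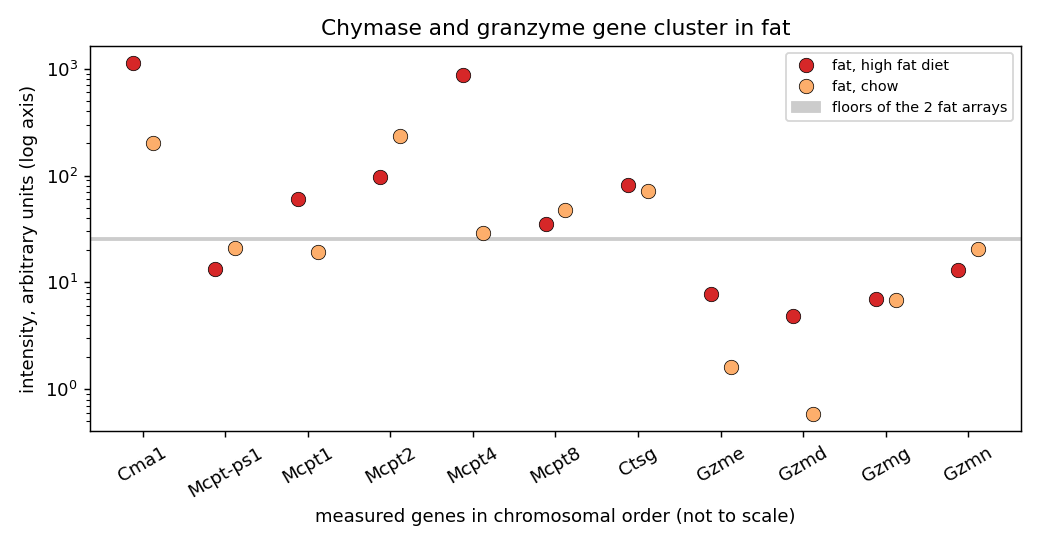
Intensity (log axis, arbitrary units) on the HFD and chow arrays of the 11 measured genes around Mcpt4, in chromosomal order and not to scale, with the floors of the 2 arrays as a grey band. Cma1 (1122 and 203.6) and Mcpt4 (877.6 and 29.11) are separated by diet, whereas Mcpt2 is lower on the HFD and the granzyme genes lie below the band.

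The wider protease list held 10 further mast cell and basophil genes. Of the 6 with values on both fat arrays, 2 were at least 2-fold higher (Mcpt1 and Tpsab1), beside 12.2% of all measured genes. A further 1 was lower (Mcpt2), beside 7.43%, and the median log2 difference of the 6 was 0.24. None of them reached the level filter, which is the median gene level on whichever array of the pair is brighter for that gene. Mcpt4, Tpsb2, Cma1 and Cpa3 reached it, but only through the HFD array. On chow they lay at percentiles 11.6, 34.4, 44.3 and 45, so reaching the filter restates their diet difference. Gzmb, a granzyme gene, had 43.88 on chow and no value on the HFD array.

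Genes of granule storage and release differed among themselves. Of 8 measured genes 2 were at least 2-fold higher on the HFD, beside 12.2% of all measured genes, and none 2-fold lower. A further 3 were within 1.5-fold, and the median was 1.59-fold higher. Srgn, the serglycin gene, had 5468 on the HFD and 3121 on chow. Ndst2, which sulphates heparin in mast cells, had 863.5 on the HFD and 417.8 on chow, 2.07-fold higher. Vamp8, a protein of granule exocytosis, was 2.23-fold higher (3371 and 1512) and the syntaxin gene Stx4a 1.85-fold (2798 and 1508). Stxbp2, which binds syntaxins, was 1.17-fold higher, and its other probe sets had log2 differences of 0.93 and 0.23. Rab27a and Rab27b, small GTPases of granule transport, were 1.93-fold lower and at least 1.44-fold higher, and Tph1, the serotonin-forming enzyme gene, was 1.15-fold higher, all below the level filter. The direction for Rab27b depended on the probe set, since its other one had 38.69 on the HFD and 62.02 on chow, and the other 2 probe sets of Rab27a were below the floor on both fat arrays. Srgn, Vamp8 and Stx4a are expressed widely among leukocytes or other cells.

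In the list of eicosanoid synthesis, 2 of the 7 measured reached 2-fold higher and 1 reached 2-fold lower, beside 12.2% and 7.43% of all measured genes. Hpgds, the prostaglandin D synthase of haematopoietic cells, had 671.9 on the HFD and 51.47 on chow, 13.1-fold higher. Its chow value was low, so a higher floor would give a smaller fold. Alox5ap, which hands arachidonic acid to 5-lipoxygenase, had 4304 and 1060, 4.06-fold higher. Pla2g4a, a phospholipase that frees arachidonic acid, was 1.94-fold higher and Ltc4s, the leukotriene C4 synthase gene, 1.5-fold. Lta4h, a hydrolase of leukotriene A4, was 1.09-fold higher below the level filter, and had a log2 difference of -0.43 by its other probe set with both values. Ptgs1, a cyclooxygenase gene, was 1.15-fold lower, and its other probe set had a log2 difference of -1.07. Ptgs2, the other cyclooxygenase gene, was 2.13-fold lower by its brighter probe set and had a log2 difference of 1.54 by its other. Macrophages also express Hpgds and Alox5ap.

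Histamine handling showed 1 large difference. Hal, the enzyme that breaks down histidine, the substrate of histidine decarboxylase, had 1563 on the HFD and 35.84 on chow, 43.6-fold higher. Its chow value was near the floor, so a higher floor would give a smaller fold. Hnmt, which methylates histamine, had 477.6 on the HFD and 666.6 on chow, 1.4-fold lower, and Aoc1, which oxidises it, was 1.74-fold lower below the level filter. The histamine receptor genes Hrh1, Hrh2 and Hrh3 were 1.33-fold lower, 1.81-fold higher and 1.38-fold lower, all below the level filter. Over the 6 genes the median log2 difference was -0.44.

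Among cytokine and other receptors of mast cells, 3 of 7 were at least 2-fold higher and none lower, beside 12.2% and 7.43% of all measured genes. Csf2rb, the beta chain shared by receptors of granulocyte growth factors, had 1081 on the HFD and 151.7 on chow, 7.13-fold higher. Il3ra, an interleukin-3 receptor chain, was 4.21-fold higher (857.7 and 203.8) and the tetraspanin gene Cd9 4.01-fold (3501 and 872.5). Il1rl1, the interleukin-33 receptor gene, had 618.7 on the HFD and 339.4 on chow, 1.82-fold higher. Enpp3, a surface enzyme of mast cells and basophils, was 1.5-fold lower, below the level filter, with log2 differences of -1.14 to 0.63 by its other 4 probe sets. Il9r was 1.35-fold higher, also below the level filter, and Hrh4, a histamine receptor gene, was at the floor on both fat arrays.

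The genes that relay the signal of the IgE receptor included many at higher levels. A difference of 2-fold or more upward was found in 10 of 15 genes and downward in none, beside 12.2% and 7.43% of all measured genes. The median of the list was 3.92-fold higher. Fcer1g, the gamma chain that the IgE receptor shares with other Fc receptors, had 6421 on the HFD and 685.3 on chow, 9.37-fold higher. The adaptor gene Lat2 was 37.3-fold higher (1928 and 51.7) and the exchange factor gene Vav1 16.6-fold (457.7 and 27.53). Both had low chow values, Vav1 just above the floor of 25.08, so a higher floor would give smaller folds. The adaptor gene Lat was 7-fold higher (635.1 and 90.78). These signalling genes serve macrophages and lymphocytes as well. Not every adaptor reached 2-fold. Gab2 had 198.1 on the HFD and 238.9 on chow, 1.21-fold lower. Lcp2 had 267.1 and 154.4, 1.73-fold higher, and Grap2 30.37 and 28.78, near the floor. All of these lay below the level filter. Thus the shared gamma chain, Lat and Lat2 were higher on the diet while the subunit genes particular to the receptor, Ms4a2 and Fcer1a, were near the floor or had no value.

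Kit ligand and mast cell transcription factors were mixed. Here 3 of the 12 reached 2-fold higher and none 2-fold lower, beside 12.2% and 7.43% of all measured genes. The median of the list was 1.32-fold higher. Ptpn6, a phosphatase that dampens Kit signalling, was 4.54-fold higher by a probe set whose suffix marks several transcripts, and had a log2 difference of 4.82 by its other. Mitf, a transcription factor of mast cells and melanocytes, was 2.11-fold higher (1992 on the HFD and 943.4 on chow), but its other probe set had 47.94 and 75.04, a log2 difference of -0.65. Bhlhe40 was 1.9-fold and Lyl1, a haematopoietic factor, 1.66-fold higher. Kitl and Gata2 were named after their values were seen. Kitl, the ligand of Kit, had 2259 on the HFD and 2342 on chow by its brightest probe set, and its other 3 probe sets had log2 differences of 0.24, 0.85 and -1.16. Gata2, a factor that mast cells need, had 331.2 on the HFD and 488.2 on chow, 1.47-fold lower.

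**Figure D4:**
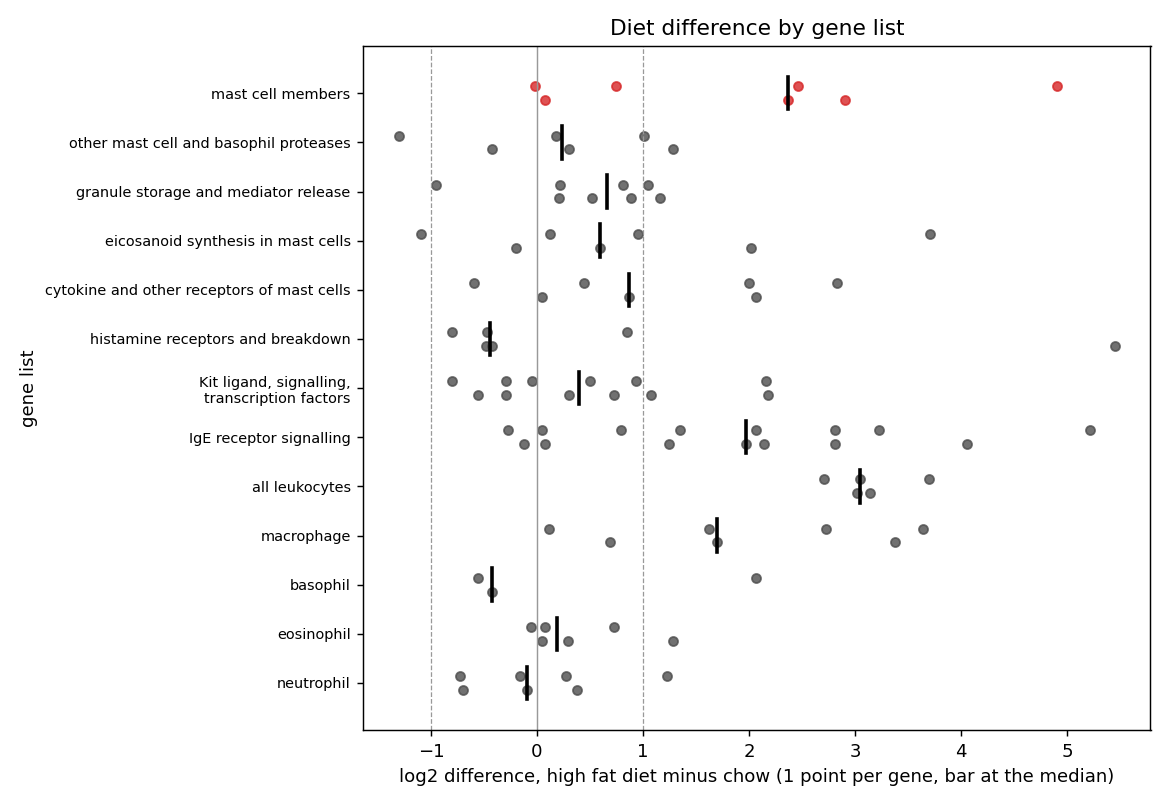
Log2 difference, high fat diet minus chow, of each measured gene in 13 lists, 1 point per gene, with a black bar at each list's median and dashed lines at a 2-fold difference. The 7 mast cell genes (red) fall into 4 points above 2 and 3 points below 1, and the lists of IgE receptor signalling and all leukocytes have medians of 1.97 and 3.05.

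Markers of all leukocytes, macrophages, B cells and T cells were mostly higher on the HFD, as the 4 proteases were. The 6 endothelial markers did not share this. Among them 4 were lower by 1.5-fold or more and 2 lay within 1.5-fold. They summed to 6213 on the HFD and 9402 on chow. Fibroblast markers reached 2-fold higher in 2 of 6 cases, and 2 others lay within 1.5-fold. All 5 leukocyte markers with both values were at least 2-fold higher, beside 12.2% of all measured genes. Their median was 8.3-fold, at a summed intensity of 29264 on the HFD and 3338 on chow. Of the macrophage markers 5 of 7 were at least 2-fold higher, and the list summed to 42135 on the HFD and 13810 on chow, with Lyz2 at 10722 and 3304. B cell markers were at least 2-fold higher in 4 of 5 cases (summed 1914 and 440.5) and T cell markers in 2 of 4 (1884 and 629.7). Of the other T cell markers Cd4 was 2.08-fold lower, with 33.45 on the HFD and 69.41 on chow. The part of these cells in the values of Hpgds, Fcer1g, Lat2, Csf2rb and the other shared genes was not tested.

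Cell types that share single genes with mast cells were less marked. Their counts stand beside 12.2% of all measured genes at least 2-fold higher. Of the 3 measured basophil markers 1, Il3ra, was at least 2-fold higher, and the list summed to 1224 on the HFD and 739.3 on chow. Most of this came from Il3ra (857.7 and 203.8) and Gata2 (331.2 and 488.2), which also stand in the mast cell lists. Mcpt8 was 1.33-fold lower. Eosinophil markers were 2-fold higher in 1 of 6 cases, Prg2 (133.6 and 55.12), and summed to 302.4 and 183.2, with Ear1 at the floor on both fat arrays and Ccr3 at the floor on chow. Neutrophil markers, which share Hdc, were higher in 1 of 7 (S100a8) and summed to 1528 and 1274. S100a8 was read by a probe set whose suffix marks several transcripts, and had 2196 in vehicle cultures and 269.4 in chow fat. The melanocyte list, whose cells also express Kit, had 0 of 5 markers 2-fold apart and summed to 1213 and 1270. The progenitor list had 1 of 5, Cd48 at 9.39-fold, while Cd34 had 1171 on the HFD and 1159 on chow.

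The forskolin arrays addressed the response of adipocytes to cAMP. The mast cell genes read low in these cultures with or without it. None of the 8 members reached the level filter, and 0 of 8 were at least 2-fold apart, beside 3.02% of the 13051 measured genes. At so low a share, a count of 0 among 8 genes says little about them. Mcpt4 and Ms4a2 were below the floor on both culture arrays and could not count as apart. The median log2 difference was 0.02, with these floored genes included. All probe sets of the members lay at or below percentile 37.1 of both culture arrays.

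Cpa3 had 121.2 with forskolin and 119.4 with vehicle, and Tpsb2 had 53.27 and 57.62 by its brighter probe set. Kit had 44.8 with forskolin and 38.66 with vehicle by its brighter probe set. Hdc had 67 with forskolin and 54.72 with vehicle by its brighter probe set. By these probe sets the 4 genes were within 1.5-fold. The other probe set of Hdc had 30.42 with forskolin and 13.56 with vehicle, which lay below the floor, so it was at least 1.38-fold higher. For that probe set the authors' deposited table gives a fold of 2.24, with bounds of 1.06 and 3.6. Cma1 had 36.07 with forskolin and 64.29 with vehicle, a 1.78-fold lower value, and Fcer1a had 45.09 and 26.55, a 1.7-fold higher one. With the floor at the 25th percentile the log2 differences of Cma1 and Fcer1a were 0.02 and 0.05. Mcpt4 (7.24 and 16.33) and Ms4a2 (10.32 and 3.16) were below the floor on both culture arrays, so they gave no fold.

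The cultures were also set beside chow fat, the tissue from which such cells come. The 2 kinds of sample differ in preparation as well as in cell types, and these cannot be told apart. Of the 8 members 4 were at least 2-fold lower in vehicle cultures than in chow fat, beside 17.1% of the 12975 measured genes. The median log2 difference was -0.95, against -0.13 for all measured genes.

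Kit had 38.66 in vehicle cultures and 242.6 in chow fat, 6.27-fold lower, and by its other probe set 72.62 and 124.3, a log2 difference of -0.78. Cma1 had 64.29 in vehicle cultures and 203.6 in chow fat, 3.17-fold lower. Hdc was 2.35-fold lower (54.72 and 128.4) and at least 2.91-fold lower by its other probe set, with vehicle at the floor. Tpsb2 was 2.12-fold lower (57.62 and 122.1) and by its other probe set 1.3-fold (66.04 and 85.85). The log2 difference of its brighter probe set, -1.08, was -0.87 after quantile normalization, -0.92 with the arrays scaled to the same median and -0.96 with the floor at the 25th percentile, so under each of these settings 3 members were 2-fold lower. Cpa3 was 1.76-fold lower (119.4 and 210.2) and Fcer1a 1.76-fold (26.55 and 46.61). Mcpt4 was below the floor in vehicle cultures and at 29.11 in chow fat, a difference of at least 1.32-fold. No member was higher in vehicle cultures than in chow fat. The leukocyte markers were all at least 2-fold lower in vehicle cultures too, in 6 of 6 cases, as were the 6 endothelial and the 6 fibroblast markers.

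The genes whose pattern over the 4 arrays was nearest to the members' mean were found by centring each gene's log2 levels on its own mean. Candidates were 7049 other genes at or above the level filter of the diet pair, without predicted or clone names. Kit, Hdc and Ms4a2 did not reach that filter. The mean centred profile of the 7 members with all values was -1.10 with forskolin, -1.04 with vehicle, 2.04 on the HFD and 0.11 on chow. This mean joins the 4 proteases that were at least 2-fold higher on the HFD with Kit, Hdc and Ms4a2, which were not. It therefore lies between these groups and matches neither. The nearest genes, by Euclidean distance over the 4 arrays, were Pla2g15 (distance 0.04), Dnase1l1 (0.10), Pik3cd (0.14), Btk (0.18), Il10ra (0.19), Tec (0.21) and Ripk3 (0.23). Klra3, Gpr155, S100a4, Rbl1 and Tk1 followed at up to 0.27. Their diet differences ranged from 3.08-fold higher for Gpr155 to 4.57-fold for Tk1. With 4 points the likeness describes these arrays only. Pik3cd and Btk, signalling kinases of leukocytes, also stood in the list of IgE receptor signalling.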

How the data were processed

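The authors' deposited table gives 1 intensity per probe set on each of 4 arrays, together with the authors' deposited score of signed fold change and its bounds. The labels name Affymetrix protocols, and the software, background correction and normalization are not stated there. A second table held the same intensities in 90504 of 90504 cells. Empty cells (74, 99, 176 and 271 on the forskolin, vehicle, high fat diet and chow arrays) were left out. Probe sets were named by gene ID through a RefSeq table of GRCm38.p6, used for names and gene order (20834 by gene ID, 42 by symbol, 183 by synonym). Each gene was read by its brightest probe set (mean log2 over the arrays) among those with the fewest empty cells. Counts used a fold of 2 over all measured members, whatever their level. Promoter letters come from RefSeq windows. Python 3.11.15 with pandas 2.3.3 was used, and the steps were tested on simulated data.

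The members and lists were chosen with earlier results of these data known. Named were all members, every measured gene of the lists of proteases, storage, eicosanoids, receptors and histamine, the 4 most different genes above the level filter in the lists of IgE and Kit signalling, the brightest or floored markers, and the 12 genes nearest in pattern. Outside these rules, Gab2, Lcp2, Grap2, Kitl, Gata2, Cd4, several adipocyte markers and the chromosomal neighbours were named too. Listed genes with no probe set named for them are not analysed here. Alternatives were other folds, scalings, floors, probe set rules, a level filter and the deposited folds.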

Additional observations from a re-analysis of the deposited data

How the results depend on the processing

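Over the counts and medians of the 3 comparisons, 52 of 60 alternative values stayed within 1.5-fold of the value given. For single members 173 of 191 values did so, and none that was 2-fold apart changed sign. Many of these values could hardly differ, so the tally overstates how far the results were tried. For a gene with 1 probe set the probe set rules return the same value, and the deposited folds rest on the same intensities. On the diet, the median log2 difference of 2.37 was 1.57 when a gene's probe sets were reduced to their median and 0.49 with each probe set by itself, since Tpsb2, Kit and Hdc have 2 each. Without the probe sets whose suffix marks several transcripts (_s_at, _x_at or _a_at), 3 members were left, with a median of 0.24. Of these 1, Cpa3, was at least 2-fold higher, since Mcpt4, Cma1 and the brighter probe set of Tpsb2 were left out. When only those ending in _s_at and _x_at were left out, a choice made after seeing the data, 4 of 6 were 2-fold higher. With forskolin, the count of 0 was 2 at a fold of 1.5 and 2 with the deposited folds, in which Mcpt4 and Ms4a2 are below the floors. Between vehicle cultures and chow fat, the count of 4 was 2 at a fold of 3 and 0 of 4 without those suffixes. The level filter left no member in the 2 comparisons that involve cultures, so it gave no value there. Low intensities limit Mcpt4 on chow and Ms4a2 and Fcer1a throughout. Both probe sets of Hdc and the dimmer ones of Kit and Tpsb2 also lay low, at or below percentile 35.4 of both fat arrays. No paired analysis was possible because each group holds 1 array.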
